A study of Homo sapiens with 12 samples.

Results

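The genes described here are 46 transcripts of G2/M and mitosis, chosen by symbol as a list of cyclins, mitotic kinases, checkpoint, kinetochore, condensin, spindle and cytokinesis genes. All 46 were found among the 13001 genes of the deposited count table. The libraries came from LNCaP cells of clone FGC, an established androgen-responsive line grown from a lymph node metastasis of human prostate cancer. Cells were at passage 8, were kept in RPMI medium with 10% fetal bovine serum, and were transfected transiently with a Lipofectamine reagent, with fresh medium after 6 hours. Poly(A) RNA was sequenced in 12 libraries, 3 each from cells given SRRM4, LSD1+8a, LSD1 or an empty vector, and the controls therefore shared the transfection itself. SRRM4 is a splicing factor of neurons that promotes the inclusion of microexons. The KDM1A gene encodes LSD1, a demethylase of histones, and its isoform LSD1+8a retains microexon 8a. The title of the series places the question in neuroendocrine prostate cancer and the splicing of LSD1+8a by SRRM4. A transient transfection leaves some cells of a culture without the plasmid, and the labels give neither the share transfected nor the time of harvest.

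Cells that have copied their DNA enter mitosis when cyclin B and CDK1 become active, condense and align their chromosomes on the spindle, pass the spindle checkpoint and divide. The transcripts for this machinery are made mainly in G2 and mitosis, under the MuvB proteins, B-MYB and FOXM1, and are repressed in resting or arrested cells by the DREAM complex of MuvB with p130 or p107 and E2F4. Many of their promoters carry a cell-cycle genes homology region (CHR), bound by MuvB, and boxes for the factor NF-Y. The inhibitor p21, encoded by CDKN1A, holds back the cyclin-dependent kinases and so favours DREAM. In proliferating tumour cells these genes serve as a common measure of division.

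Promoter letters were compared first. The genes were chosen as G2/M and mitosis genes, many of which carry CHR and NF-Y letters. A high share therefore describes the list and is no result of SRRM4. RefSeq (GRCh38.p14) gave a window of 300 bases, 250 before and 50 after the start, for 38 of the 46 genes. AURKA, BIRC5, FOXM1, BUB3, TTK, UBE2C, TPX2 and RACGAP1 had no entry. The CHR hexamer was searched as TTTGAA and as TTCAAA on the other strand, and the NF-Y box as CCAAT and as ATTGG. Genes were counted, not windows, and a gene counted if any of its windows held the letters. The hexamer was found for 27 of the 38 genes, or 71.1%. It was found for 13.0% of the 9040 genes of the count table with a window and 18.2% of all 27305 genes with a window. An NF-Y box was found for 29 genes, or 76.3%, against 43.7% of the table genes and 39.7% of all. Both were found for 21 genes, or 55.3%, against 7.22% and 8.37%, and need not share a window. In 22 of the 27 genes with a hexamer, one lay within 50 bases of a start.

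Stretches of 5 promoters are printed because these genes fell with SRRM4 and show how the hexamer is placed. Positions count from 1 at the first transcribed base, with -1 just before it. Capitals mark the CHR hexamer and the NF-Y letters, and each line reads 5′ to 3′ along the gene. Those of CDCA8 (chr1:37692396-37692545, plus strand), CDC25C (chr5:138331775-138331924, minus strand), NDC80 (chr18:2571437-2571586, plus strand) and NUSAP1 (chr15:41332761-41332910, plus strand) run from -120 to 30. That of TOP2A (chr17:40417937-40418146, minus strand) runs from -250 to -41.
CDCA8: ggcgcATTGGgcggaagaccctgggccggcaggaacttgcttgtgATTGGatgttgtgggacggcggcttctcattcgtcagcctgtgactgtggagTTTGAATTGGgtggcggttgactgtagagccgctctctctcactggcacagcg
CDC25C: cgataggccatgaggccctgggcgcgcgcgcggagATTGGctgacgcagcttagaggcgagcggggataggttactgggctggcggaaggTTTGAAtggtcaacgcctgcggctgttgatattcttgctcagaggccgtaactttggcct
NDC80: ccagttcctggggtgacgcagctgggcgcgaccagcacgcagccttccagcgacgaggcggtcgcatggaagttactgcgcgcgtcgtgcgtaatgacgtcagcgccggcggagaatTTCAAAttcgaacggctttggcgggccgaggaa
NUSAP1: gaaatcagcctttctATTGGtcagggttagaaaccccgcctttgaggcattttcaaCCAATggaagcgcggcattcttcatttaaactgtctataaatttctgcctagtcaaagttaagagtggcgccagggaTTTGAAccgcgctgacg
TOP2A: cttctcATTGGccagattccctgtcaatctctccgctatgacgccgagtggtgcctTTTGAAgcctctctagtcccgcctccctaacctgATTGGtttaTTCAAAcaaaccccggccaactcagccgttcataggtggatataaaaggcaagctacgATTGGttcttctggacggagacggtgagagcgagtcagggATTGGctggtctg
The hexamer begins at -23 in CDCA8, where its last base is also the first of an ATTGG. It begins at -30 in CDC25C, at -3 in NDC80 and at 14 in NUSAP1, and TOP2A has TTTGAA at -194 and TTCAAA at -151. CDC25C has a further window with another start, from which the same hexamer begins at 44. The stretch of NDC80 holds no NF-Y letters. A match of letters is a description of the window and shows no binding.

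Each library held 10.88 to 13.57 M counts over the table, with 10.88 to 11.49 M in SRRM4 libraries and 12.75 to 13.57 M in empty-vector libraries. Over these, the 46 genes had 1627 (CENPA) to 35327 (MKI67) counts over all 12 libraries. KDM1A, the gene of the LSD1 plasmids, followed the labels, at 1983 to 2608 CPM (counts scaled to library size) with LSD1+8a and 515 to 587 CPM with LSD1, against 93.7 to 95.2 CPM with the empty vector. LSD1+8a cells thus held 4.20-fold more KDM1A transcript than LSD1 cells, so isoform and amount differed together. The transcript of SRRM4 was not analysed here, so no such value checks the SRRM4 labels. All 10 listed luminal prostate markers were measured, and of 12 markers of leukocytes, fibroblasts, endothelium and basal cells 3 were, at up to 24.7 CPM on group average. Whether libraries of 1 group stem from separate cultures is not in the labels, so p-values measure only the spread between libraries, which may be technical.

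With SRRM4, mitotic transcripts were lower by a small amount. Of the 46 genes 10 fell against the empty vector, 0 rose and 36 were not called (edgeR quasi-likelihood test, adjusted p under 0.05 over all genes). TOP2A, the topoisomerase that untangles replicated chromosomes, led by p, and CDC25C, the phosphatase that switches on CDK1, by size. The 10 called genes were 11.0% to 19.0% lower. Of all genes 3.22% were called lower and 4.47% higher. The count of 10 was 5 in DESeq2, 6 without SRRM4 replicate 2 and 6 without empty-vector replicate 3. In RNA from whole cultures, fewer cells in G2 or mitosis and less transcript per cell cannot be told apart.

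The lean to lower values reached beyond the called genes. With SRRM4, 44 of the 46 genes had a log2 fold change below 0, against 50.4% of all genes, and the exceptions were BIRC5 (0.07) and INCENP (0.01). The median over the 46 was -0.09, with quartiles of -0.17 and -0.05, while the median of all genes was -0.0011. At an unadjusted p under 0.05, 19 of the genes were lower and 0 higher, against 9.95% lower and 10.8% higher in the table. All 3 SRRM4 libraries lay below all 3 empty-vector libraries for 16 of the 46, against 12.3% of the table. A typical standard error was 0.05 on the log2 scale (median over the 46), so single changes near the median could not be told from 0.

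Summed over the 46 genes, SRRM4 libraries held 3003, 3066 and 3049 CPM. LSD1+8a libraries held 3175, 3186 and 3179 CPM, LSD1 libraries 3185, 3298 and 3197 CPM, and empty-vector libraries 3274, 3192 and 3307 CPM. Every SRRM4 library was below every other library. LSD1+8a libraries were below all empty-vector libraries, though narrowly (3186 CPM at most, against 3192 CPM in empty-vector replicate 2). LSD1 libraries overlapped both of these groups. The mean was 3040 ± 32.6 CPM with SRRM4 and 3258 ± 58.9 CPM with the empty vector (SD, n = 3 each), a difference of -6.70%. In single SRRM4 libraries 40, 35 and 37 of the genes lay under the empty-vector mean, so no one library carried the sum. Such counts were not confined to SRRM4. They were 30, 24 and 35 in LSD1+8a libraries, 29, 17 and 30 in LSD1 libraries, and 19, 32 and 14 in empty-vector libraries. The share of all genes under the empty-vector mean was not counted for single libraries.

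**Figure D1:**
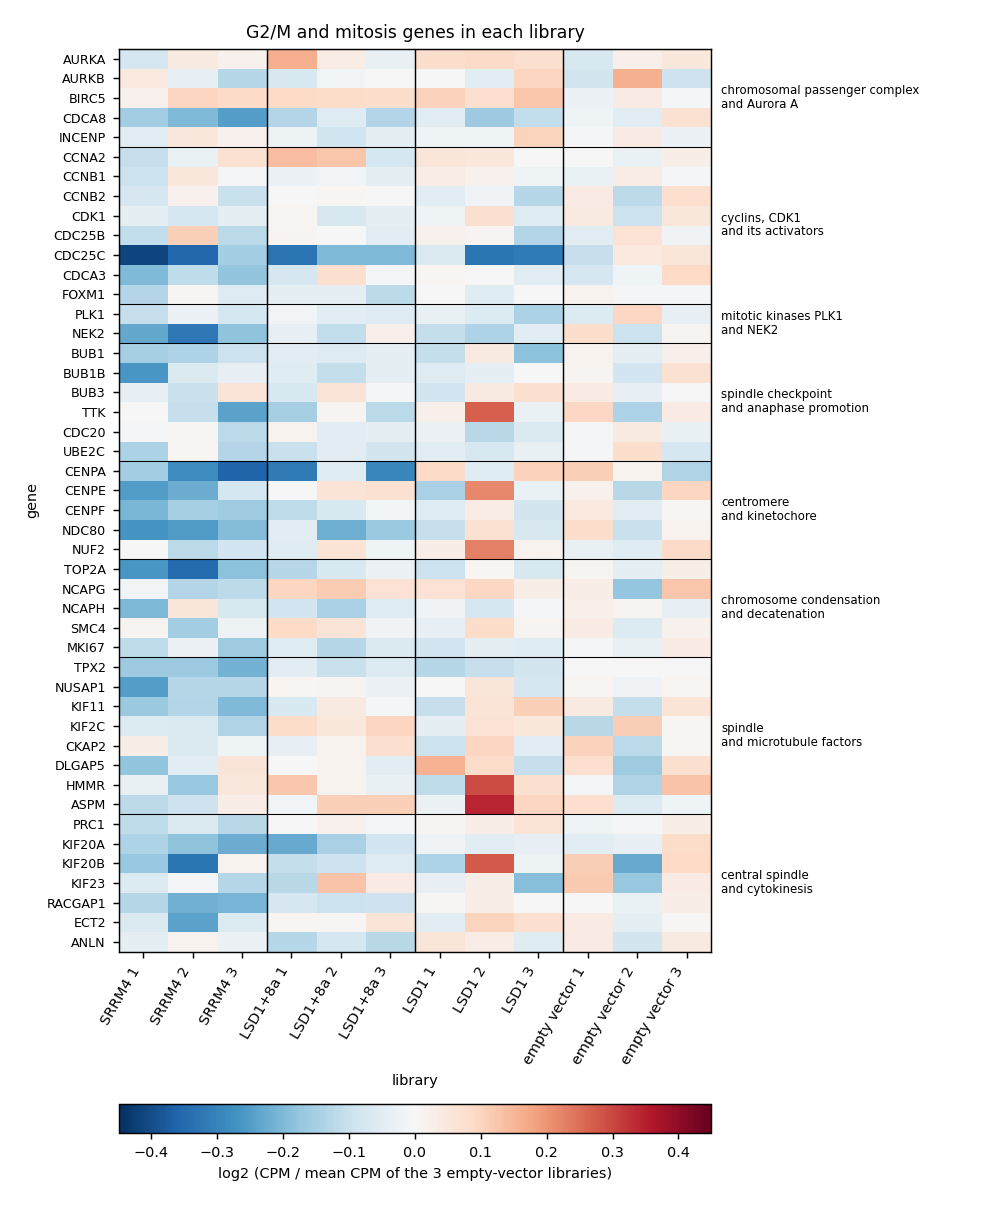
Colour gives log2 of each gene's CPM over its mean in the 3 empty-vector libraries, with genes in rows by role and the 12 libraries in columns. The SRRM4 columns are mostly blue, with 40, 35 and 37 of 46 genes below the empty-vector mean. Such genes number 24 to 35 in LSD1+8a libraries, 17 to 30 in LSD1 libraries and 14 to 32 in empty-vector libraries. The share of all genes below that mean was not counted. HMMR (59.9 CPM) and ASPM (33.8 CPM) are reddest in the second LSD1 library.

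The level of a gene per unit length was taken from the deposited TPM (scaled to gene length and library size) values. In empty-vector cells CCNB1 was highest at 127 TPM, followed by BUB3 at 124, UBE2C at 112 and NUSAP1 at 103 TPM, and ASPM was lowest at 3.41 TPM. On this scale all 3 SRRM4 libraries were below all 3 empty-vector libraries for 10 of the 46 genes, against 7.83% of the table, and 7 of those 10 were among the genes called on counts. CENPF, NEK2 and NUSAP1, called on counts, overlapped in TPM. The summed TPM of the 46 was 1817 ± 29.6 with SRRM4, 1886 ± 12.9 with LSD1+8a, 1923 ± 36.8 with LSD1 and 1893 ± 12.2 with the empty vector (SD, n = 3 each). Unlike in CPM, the sums of LSD1+8a libraries (1876, 1901 and 1882 TPM) overlapped those of empty-vector libraries (1898, 1879 and 1901 TPM). In the other direction, all 3 SRRM4 libraries were above all 3 empty-vector libraries in TPM for 3 of the 46 genes, BIRC5, CKAP2 and KIF20B, against 13.5% of the table. For 7 genes the scales differed in sign, with a log2 fold change on counts below 0 but a higher mean TPM with SRRM4, namely AURKA, CCNB1, BUB3, NCAPH, CKAP2, KIF20B and KIF23, none of them called. INCENP differed the other way. The microtubule protein CKAP2 was at -0.02 on counts and had 34.15, 34.16 and 32.4 TPM with SRRM4 and 31.9, 25.9 and 31.7 TPM with the empty vector. KIF20B, a late mitotic kinesin, was at -0.15 on counts, while it had 5.70, 5.72 and 5.77 TPM with SRRM4 and 4.76, 3.84 and 5.50 TPM with the empty vector.

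The engine of mitotic entry moved little. CCNA2, CCNB1 and CCNB2 encode the cyclins that drive CDK1, CDC25B and CDC25C the phosphatases that activate it, CDCA3 an adaptor that helps destroy the opposing kinase WEE1, and FOXM1 a transcription factor of G2 genes. Of these 8 genes 1 fell with SRRM4, although all 8 values were below 0 (median -0.05). CDC25C stood at 14.2, 14.8 and 17.0 CPM with SRRM4, 15.1, 16.5 and 16.5 CPM with LSD1+8a, 18.1, 15.1 and 15.2 CPM with LSD1, and 17.6, 19.5 and 19.6 CPM with the empty vector. All SRRM4 libraries were below the controls, but they overlapped both LSD1 groups. Its log2 fold change against the empty vector was -0.30 (SE 0.09, adjusted p = 0.0355) with SRRM4, -0.24 (adjusted p = 0.513) with LSD1+8a and -0.23 (adjusted p = 0.729) with LSD1. It was the lowest of the 46 values in all 3 comparisons, which share their controls. Its call with SRRM4 was lost in DESeq2 (adjusted p = 0.175), without SRRM4 replicate 1 (adjusted p = 0.175) or 2 (0.124), and without empty-vector replicate 2 (0.105) or 3 (0.11).

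CCNB1 and CDK1 themselves were not called in any comparison. CCNB1 had 109, 121 and 116 CPM with SRRM4 and 115, 119.5 and 116 CPM with the empty vector, a log2 fold change of -0.02 (95% interval -0.10 to 0.06). The groups overlapped throughout. CDK1 gave -0.05 (-0.14 to 0.04), CCNA2 -0.02 (-0.15 to 0.11) and FOXM1 -0.06 (-0.14 to 0.02). CDCA3 came closest to a call among the rest, at 51.6, 54.8 and 52.4 CPM with SRRM4 and 56.2, 58.5 and 63.1 CPM with the empty vector. Its groups did not overlap, and the log2 fold change was -0.16 (SE 0.05, adjusted p = 0.0501).

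The chromosomal passenger complex of AURKB, INCENP, BIRC5 (survivin) and CDCA8 (borealin) corrects the attachment of chromosomes to the spindle, and AURKA is the related kinase of centrosomes. Of these 5 genes CDCA8 alone fell. It stood at 46.4, 45.1 and 43.6 CPM with SRRM4, 47.2, 49.7 and 47.2 CPM with LSD1+8a, 50.1, 46.2 and 47.9 CPM with LSD1, and 51.1, 49.9 and 54.2 CPM with the empty vector. The SRRM4 libraries were below all the controls and LSD1+8a libraries, and overlapped those of LSD1. The log2 fold change against the empty vector was -0.20 (SE 0.05, adjusted p = 0.0164), against -0.11 in each LSD1 group (adjusted p = 0.729 for LSD1+8a and 0.843 for LSD1). The CDCA8 call was lost in DESeq2 (adjusted p = 0.0979), without SRRM4 replicate 2 (adjusted p = 0.0501) or 3 (0.0898) and without empty-vector replicate 3 (0.0962). BIRC5, its partner in the complex, had 74.4, 78.4 and 77.9 CPM with SRRM4 and 72.0, 75.3 and 72.8 CPM with the empty vector, a log2 fold change of 0.07 (95% interval -0.02 to 0.16). AURKA was at -0.01 (-0.14 to 0.12), AURKB at -0.04 (-0.19 to 0.11) and INCENP at 0.01 (-0.09 to 0.10).

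PLK1 and NEK2 are kinases of the centrosome and spindle, and NEK2 parts the centrosomes before mitosis. NEK2 fell with SRRM4. It had 29.6, 27.8 and 30.6 CPM with SRRM4, 33.8, 32.1 and 35.3 CPM with LSD1+8a, 32.2, 31.5 and 33.6 CPM with LSD1, and 36.6, 32.5 and 35.0 CPM with the empty vector. All 3 SRRM4 libraries were below all 9 others. Against the empty vector NEK2 was at -0.24 on the log2 scale (SE 0.07, adjusted p = 0.0164), and adjusted p was 0.0543 against LSD1+8a and 0.201 against LSD1. It was not called in DESeq2 (adjusted p = 0.0982), without SRRM4 replicate 2 (0.101) or without empty-vector replicate 1 (0.106). PLK1 was at -0.07 (95% interval -0.16 to 0.02).

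The spindle checkpoint genes BUB1, BUB1B, BUB3 and TTK delay anaphase until chromosomes are attached, and CDC20 and UBE2C act with the anaphase-promoting complex that ends the delay. In edgeR 0 of these 6 genes were called, with 2 lower at an unadjusted p under 0.05 and 0 called by DESeq2 or limma-voom. BUB1 had the smallest p. It had 47.2, 47.5 and 49.0 CPM with SRRM4, 50.5, 50.3 and 50.8 CPM with LSD1+8a, 48.6, 53.8 and 46.0 CPM with LSD1, and 53.0, 50.9 and 53.1 CPM with the empty vector. SRRM4 libraries were below the controls and LSD1+8a libraries and overlapped LSD1, with a log2 fold change of -0.13 (SE 0.05, adjusted p = 0.162). The other 5 lay between -0.12 (BUB1B) and -0.02 (BUB3).

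At the centromere, CENPA is the histone variant that marks the site, CENPE a motor, CENPF a large kinetochore protein, and NDC80 and NUF2 parts of the complex that grips microtubules. Of these 5 genes 2 fell with SRRM4. CENPF had 141, 147 and 146 CPM with SRRM4, 151, 156 and 162 CPM with LSD1+8a, 156, 167 and 154 CPM with LSD1, and 168, 157 and 164 CPM with the empty vector. No SRRM4 library reached the lowest library of any other group. The log2 fold change was -0.17 against the empty vector (SE 0.04, adjusted p = 0.00286), -0.14 against LSD1 (adjusted p = 0.0243) and -0.11 against LSD1+8a (adjusted p = 0.0836). The call against LSD1 was lost in DESeq2 (adjusted p = 0.0719), without SRRM4 replicate 1 (adjusted p = 0.117) or 3 (0.0590) and without LSD1 replicate 2 (0.174), while that against the empty vector remained without any one library.

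NDC80 had 33.0, 33.2 and 34.6 CPM with SRRM4, 38.3, 34.0 and 35.3 CPM with LSD1+8a, 36.9, 41.6 and 37.7 CPM with LSD1, and 41.8, 37.0 and 40.1 CPM with the empty vector. SRRM4 libraries were below the controls and LSD1 libraries and overlapped one of LSD1+8a. NDC80 was at -0.24 on the log2 scale against the empty vector (SE 0.06, adjusted p = 0.0169). It was not called in DESeq2 (adjusted p = 0.0907), without SRRM4 replicate 1 (adjusted p = 0.0742) or 2 (0.0638) or without empty-vector replicate 1 (0.109) or 3 (0.0526). NUF2, which pairs with NDC80 in the same complex, was at -0.07 (95% interval -0.23 to 0.10). CENPA was at -0.26 with a wide error (SE 0.11, adjusted p = 0.150), at 9.25 to 10.7 CPM with SRRM4 and 10.8 to 12.8 CPM with the empty vector. CENPE was at -0.18 (SE 0.08, adjusted p = 0.162).

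The smallest p among the 46 came from the condensation genes. TOP2A had 138, 130.1 and 146 CPM with SRRM4, 152, 158 and 163 CPM with LSD1+8a, 155, 167 and 158 CPM with LSD1, and 168, 162 and 169 CPM with the empty vector. All SRRM4 libraries lay below all 9 others. The log2 fold change was -0.26 against the empty vector (SE 0.04, adjusted p = 1.67e-05), -0.19 against LSD1+8a (adjusted p = 0.00213) and -0.21 against LSD1 (adjusted p = 0.000713). The 3 comparisons share the SRRM4 libraries. TOP2A remained called in each of them under every alternative tried. NCAPG and NCAPH of condensin I, the shared condensin subunit SMC4, and MKI67, the chromosome coat protein Ki-67, were not called, at -0.10 (MKI67, adjusted p = 0.0731) to -0.05 (SMC4). MKI67 is a routine marker of dividing cells and had 232, 246 and 224 CPM with SRRM4 and 249.6, 245 and 257 CPM with the empty vector, where one SRRM4 library overlapped the controls.

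Spindle and microtubule factors numbered 8, and 2 of them fell. TPX2, which nucleates spindle microtubules and activates Aurora A, had 116, 116 and 112 CPM with SRRM4, 125, 121 and 124 CPM with LSD1+8a, 119, 121 and 122 CPM with LSD1, and 129.7, 129.8 and 129 CPM with the empty vector. SRRM4 libraries were the lowest, the controls the highest, and the LSD1 groups lay between with no overlap with either. The log2 fold change was -0.18 with SRRM4 (SE 0.04, adjusted p = 0.00107), and was -0.07 with LSD1+8a (adjusted p = 0.733) and -0.11 with LSD1 (adjusted p = 0.645), neither called. The call with SRRM4 remained under every alternative tried.

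NUSAP1, which bundles microtubules near chromosomes, had 83.4, 90.6 and 90.5 CPM with SRRM4, 99.6, 99.8 and 97.2 CPM with LSD1+8a, 99.1, 103 and 94.0 CPM with LSD1, and 99.5, 97.9 and 99.5 CPM with the empty vector. Each SRRM4 library was below the 9 others, and the 3 other groups overlapped. It fell by 0.17 against the empty vector (SE 0.04, adjusted p = 0.0112), by 0.17 against LSD1+8a (adjusted p = 0.0132) and by 0.16 against LSD1 (adjusted p = 0.0163) on the log2 scale. SRRM4 replicate 1 was the lowest, and without it adjusted p was 0.117 against the empty vector, 0.119 against LSD1+8a and 0.138 against LSD1. Against LSD1+8a adjusted p was also 0.0519 without LSD1+8a replicate 2, and against LSD1 it was 0.0511 without LSD1 replicate 1 and 0.114 without LSD1 replicate 2. In DESeq2 adjusted p was 0.0559 against LSD1+8a and 0.0654 against LSD1, and the call against the empty vector remained. The other 6 ranged from -0.17 for the spindle motor KIF11 (adjusted p = 0.128) to -0.02 for CKAP2, with KIF2C at -0.09, ASPM at -0.06, DLGAP5 at -0.05 and HMMR at -0.05.

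For division itself, PRC1 bundles the midzone, KIF20A and KIF20B are kinesins of the midzone and bridge, KIF23 and RACGAP1 form centralspindlin, ECT2 activates RhoA and ANLN anchors the contractile ring. Of these 7 genes 2 fell with SRRM4 against the empty vector. RACGAP1 had 82.4, 77.7 and 77.9 CPM with SRRM4, 85.6, 84.3 and 84.5 CPM with LSD1+8a, 90.5, 92.1 and 90.3 CPM with LSD1, and 90.1, 88.3 and 92.1 CPM with the empty vector. SRRM4 libraries were lowest, LSD1+8a libraries next, and LSD1 and control libraries highest and overlapping. RACGAP1 was at -0.18 against the empty vector (SE 0.04, adjusted p = 0.00346), -0.20 against LSD1 (adjusted p = 0.00224) and -0.10 against LSD1+8a (adjusted p = 0.176). Both calls remained under every alternative. Its value for LSD1+8a against the empty vector was -0.09 (adjusted p = 0.699), not called.

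KIF20A, which carries the passenger complex to the midzone, had 67.0, 65.1 and 63.1 CPM with SRRM4, 63.0, 66.6 and 69.4 CPM with LSD1+8a, 73.0, 71.1 and 71.8 CPM with LSD1, and 71.3, 71.8 and 78.1 CPM with the empty vector. SRRM4 and LSD1+8a libraries overlapped, and both lay below the LSD1 and control libraries. The log2 fold change against the empty vector was -0.18 with SRRM4 (SE 0.05, adjusted p = 0.0161) and -0.15 with LSD1+8a (SE 0.05, adjusted p = 0.332). The SRRM4 call was lost in DESeq2 (adjusted p = 0.0778), without SRRM4 replicate 2 (adjusted p = 0.0501) or 3 (0.0909) and without empty-vector replicate 3 (0.122). PRC1 had 109, 113 and 108 CPM with SRRM4, 118, 119.8 and 118 CPM with LSD1+8a, 119, 121 and 123 CPM with LSD1, and 116, 117 and 120.5 CPM with the empty vector. It was lower in SRRM4 than in every other library. It was called against LSD1 (-0.14, adjusted p = 0.0207) but not against the empty vector (-0.10, adjusted p = 0.0920) or LSD1+8a (-0.11, adjusted p = 0.0753). The PRC1 call was lost in DESeq2 (adjusted p = 0.0832), without SRRM4 replicate 1 (adjusted p = 0.0750) or 3 (0.0910) and without LSD1 replicate 2 (0.0535) or 3 (0.0996). ANLN was at -0.02, KIF23 at -0.06, ECT2 at -0.12 and KIF20B at -0.15, none called.

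**Figure D2:**
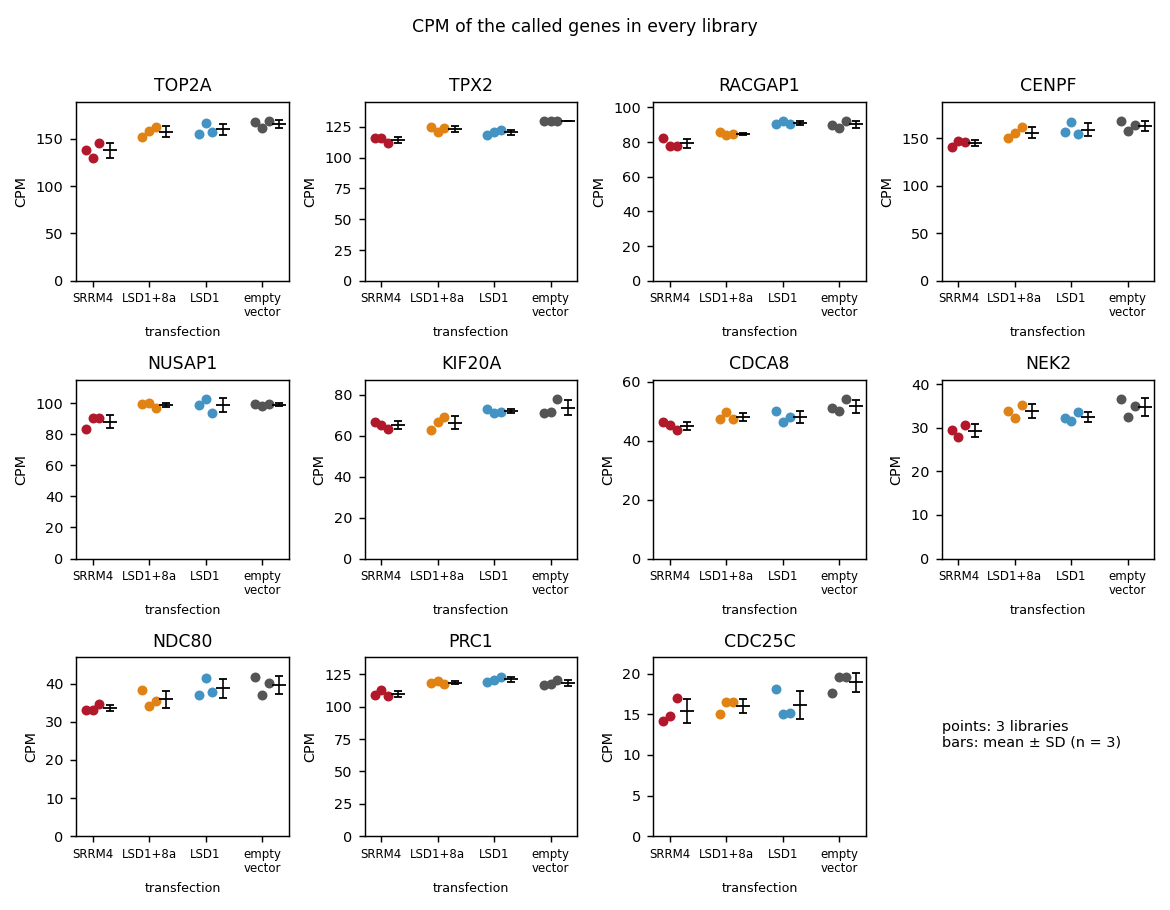
CPM of the 11 genes called in at least 1 comparison is plotted for each library, with points for libraries and bars for the mean ± SD of 3, on axes that start at 0. The SRRM4 points sit lowest for TOP2A (130.1 to 146 CPM, against 162 to 169 CPM with the empty vector), NUSAP1 and RACGAP1, and the differences are small beside the levels.

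By role, the summed level was lower with SRRM4 than with the empty vector in all 8 groups, by differing amounts. Spindle factors summed to 464 ± 5.18 CPM with SRRM4 and 502 ± 12.6 CPM with the empty vector, condensation genes to 551 ± 1.13 and 604 ± 17.4 CPM, and kinetochore genes to 248 ± 4.20 and 280.3 ± 11.2 CPM (SD, n = 3 each). Passenger complex genes with AURKA summed to 259 ± 4.35 CPM with SRRM4 and 263 ± 6.07 CPM with the empty vector, within the spread. Whether the roles differ in size of change was not tested.

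**Figure D3:**
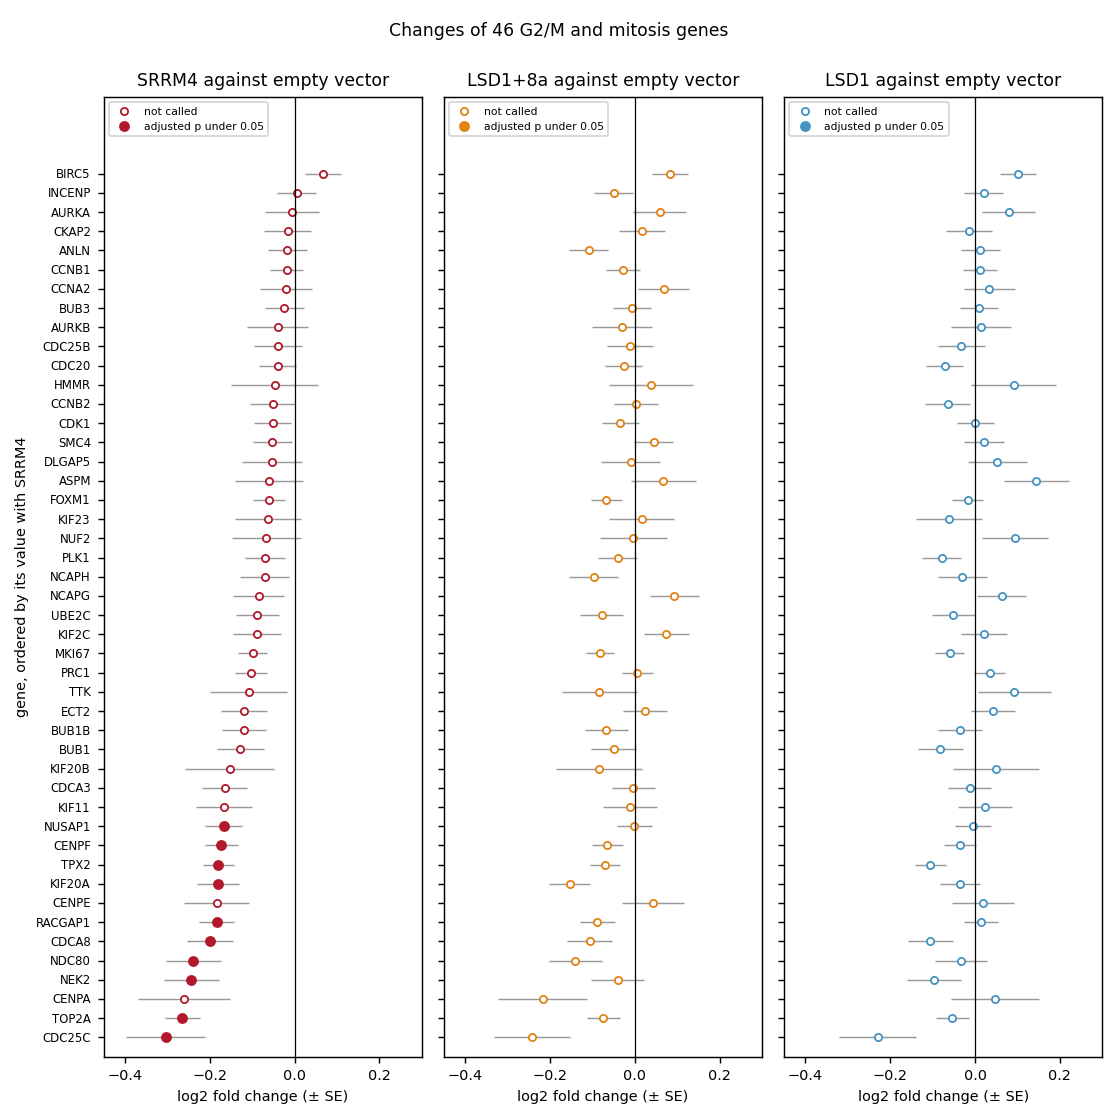
Points give the log2 fold change of each of the 46 genes against the empty vector with its SE, ordered by the value with SRRM4, and filled points mark an adjusted p under 0.05. With SRRM4 44 points lie left of 0 and 10 are filled, while no point is filled for LSD1+8a or LSD1.

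LSD1+8a changed none of the 46 beyond the threshold. In edgeR 0 were higher and 0 lower against the empty vector, and DESeq2 and limma-voom called 0. Of all genes 0.285% were called higher and 0.0615% lower, so calls were rare in general. At an unadjusted p under 0.05, 8 of the 46 were lower and 0 higher, against 3.23% lower and 3.59% higher of all genes. These 8 were CDCA8, CDC25C, CENPA, NDC80, MKI67, KIF20A, RACGAP1 and ANLN. Values below 0 numbered 32 of 46, against 49.6% of the table, all 3 libraries lay below the controls for 9 genes, against 5.64%, and the median was -0.03. KIF20A had the smallest p (unadjusted p = 0.00266), and values ran from -0.24 (CDC25C) to 0.09 (NCAPG).

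LSD1 without the microexon gave values around 0. In edgeR, DESeq2 and limma-voom 0 of the 46 were called higher or lower, where edgeR called 0.0462% of all genes higher and 0.0538% lower. With unadjusted p under 0.05, TPX2 (-0.11) and CDC25C (-0.23) were lower and BIRC5 (0.10) was higher, against 2.80% lower and 3.09% higher in the table. Values were below 0 for 22 of 46 genes, against 48.9% of the table. All 3 LSD1 libraries were below the controls for 2 genes, against 6.21%. The median was 0.0050, and the range was -0.23 (CDC25C) to 0.14 (ASPM).

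The intervals bound what was missed. For CCNB1 the 95% interval was -0.11 to 0.05 with LSD1+8a and -0.07 to 0.09 with LSD1. For TOP2A it was -0.15 to 0.01 with LSD1+8a and -0.13 to 0.03 with LSD1. Changes of these genes by a few percent were therefore not detectable in these libraries, and no called change does not show equal levels.

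**Figure D4:**
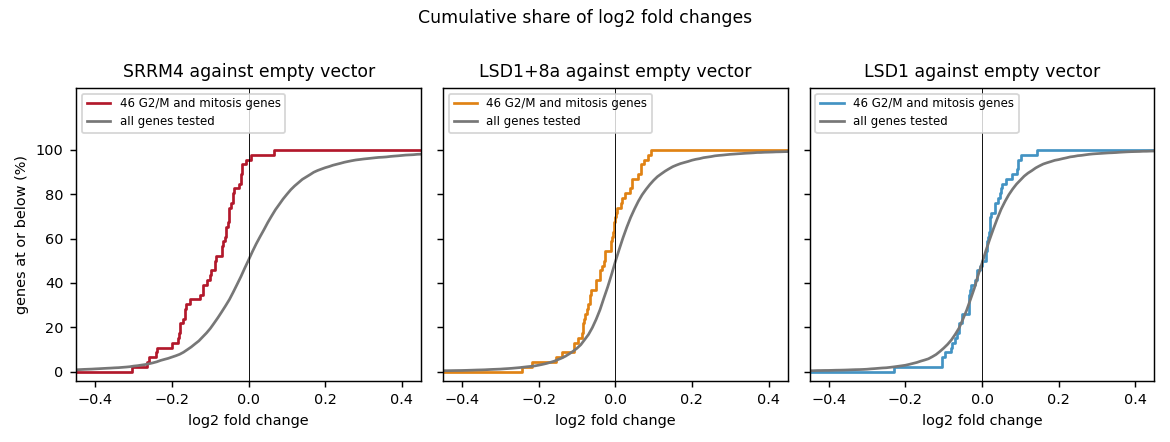
Curves give the share of genes (y axis, percent) at or below each log2 fold change (x axis) against the empty vector, for the 46 genes in colour and for all 13001 genes in grey. With SRRM4 the coloured curve lies left of the grey one, with a median of -0.09, while with LSD1 (median 0.0050) the curves lie close together.

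Set directly against the LSD1 groups, SRRM4 libraries were again lower. Against LSD1+8a, TOP2A and NUSAP1 fell, 0 of the 46 rose and 44 were not called, where 3.17% of all genes were called lower and 4.42% higher. At an unadjusted p under 0.05, 14 were lower and 0 higher, against 10.2% and 11.0% of the table. Values were below 0 for 41 genes, against 50.9%, with a median of -0.06. The count of 2 was 4 without LSD1+8a replicate 1, 1 without LSD1+8a replicate 2 and 1 without SRRM4 replicate 1. It was 1 in DESeq2, 5 when only these groups were fitted and 8 with upper-quartile scaling.

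Against LSD1, TOP2A, RACGAP1, NUSAP1, CENPF and PRC1 fell, 0 rose and 41 were not called, where 2.67% of all genes were called lower and 4.38% higher. At an unadjusted p under 0.05, 16 were lower and 0 higher, against 9.98% and 11.0% of the table. Values were below 0 for 43 genes, against 51.5%, with a median of -0.08. The count of 5 was 9 with LSD1 replicate 1 left out, 2 with LSD1 replicate 2 left out, 2 with SRRM4 replicate 1 left out and 3 with SRRM4 replicate 3 left out, and it was 2 in DESeq2. Over the 3 SRRM4 comparisons, which share the SRRM4 libraries, 37 genes were below 0 in all, 11 were called in at least 1, and TOP2A and NUSAP1 in all 3. The matching shares of all genes were not counted, so whether these numbers are unusual cannot be read from them.

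Between LSD1+8a and LSD1, 0 of the 46 were called by edgeR, DESeq2 or limma-voom, where edgeR called 0.208% of all genes higher and 0.115% lower. With unadjusted p under 0.05, CENPA (-0.27), ANLN (-0.12), KIF20A (-0.12) and RACGAP1 (-0.10) were lower and 0 were higher, against 3.25% and 2.96% of the table. Values were below 0 for 30 genes, against 50.4%. The median was -0.02.

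The regulators of these genes were read beside them. With SRRM4 against the empty vector, edgeR called 4.47% of all genes higher and 3.22% lower, the shares to set beside each list. At an unadjusted p under 0.05 the shares were 10.8% and 9.95%. Of 12 measured cell-cycle inhibitors 3 rose and 2 fell with SRRM4 in edgeR. DESeq2 called 3 higher and 0 lower, and limma-voom 3 higher and 1 lower. CDKN1A (p21) rose, with 583, 618 and 608 CPM with SRRM4, 302, 304 and 309 CPM with LSD1+8a, 299, 308 and 311 CPM with LSD1, and 305, 311 and 289.6 CPM with the empty vector. The SRRM4 libraries stood far above the 9 others, which overlapped. Its log2 fold change was 1.0 against the empty vector (SE 0.03, adjusted p = 4.89e-23), and its part in the lower mitotic transcripts was not tested. The antiproliferative gene BTG2 (0.56) and the stress gene GADD45A (0.56) also rose, while CDKN1B, which encodes p27, fell by 0.18 (adjusted p = 0.0496) and GADD45G by 0.36 on the log2 scale. Of 23 genes of DREAM, MuvB, the RB family and E2F, E2F3 rose in edgeR (0.18, adjusted p = 0.0385), a call not made by DESeq2, which called 0 higher. Limma-voom called 1 of the 23 higher. In edgeR 0 fell against the empty vector, and 0 were called lower by DESeq2 or limma-voom. At an unadjusted p under 0.05, 1 was lower, namely RBL2, which encodes p130 (-0.10, adjusted p = 0.0888). RBL2 was called lower in edgeR with SRRM4 against LSD1+8a (-0.15, adjusted p = 0.0123) and against LSD1 (-0.15, adjusted p = 0.0120).

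Other genes of the same processes were counted as well, beside the same shares of all genes (4.47% called higher and 3.22% lower with SRRM4). Of 92 further mitotic and kinetochore genes measured, 9 fell and 1 rose with SRRM4 (median -0.07), though DESeq2 called 2 lower and 0 higher. Limma-voom called 9 of the 92 lower and 1 higher. The GTPase scaffold IQGAP3 fell by 0.28 (adjusted p = 2.34e-05), the chromatin protein HMGB2 by 0.22 (adjusted p = 4.34e-05) and the chromosome motor KIF4A by 0.21 (adjusted p = 0.0120) on the log2 scale. KPNA2, an importin, was the one that rose (0.15, adjusted p = 0.0183). Of 17 condensin and cohesin genes, NCAPG2 (-0.18) and NCAPD2 (-0.10) fell and the cohesin loader NIPBL rose (0.19), with 0 called in DESeq2. Among these 17, limma-voom called 1 lower and 1 higher. Of 16 subunits of the anaphase-promoting complex, ANAPC5 fell in edgeR (-0.10), while DESeq2 called 0 lower and limma-voom 1. In edgeR 0 of the 16 rose, also 0 at an unadjusted p under 0.05 and in DESeq2 and limma-voom.

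Genes of earlier phases were counted in the same way, again beside 4.47% of all genes called higher and 3.22% lower with SRRM4. Of 56 DNA replication and S phase genes 4 fell, namely UNG (-0.17), RRM1 (-0.13), RRM2 (-0.13) and ATAD2 (-0.13), with a median of -0.04. DESeq2 called 0 of the 56 lower and limma-voom 4. In edgeR 0 of the 56 rose, with 1 higher at an unadjusted p under 0.05 and 0 in DESeq2 and limma-voom. Of 8 G1 cyclins and kinases 0 were called in edgeR, DESeq2 or limma-voom, and unadjusted p was under 0.05 for 1 higher and 2 lower. In the LSD1+8a and LSD1 comparisons with the empty vector, edgeR, DESeq2 and limma-voom called 0 genes of all 7 lists. There 0 to 3 genes per list and direction passed an unadjusted p under 0.05. At that threshold 3.59% of all genes were higher and 3.23% lower with LSD1+8a, and 3.09% and 2.80% with LSD1.

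Promoter letters were also set against the calls. Of the 8 called genes with a window 6 held the CHR hexamer, as did 21 of 30 genes that were not called (70.0%). CENPF has it at 41, and the windows of NEK2 and KIF20A hold NF-Y letters without it. Among other genes with a window, 41 of 80 further mitotic genes, 6 of 13 condensin and cohesin genes and 7 of 19 DREAM to E2F regulators had the hexamer. So did 5 of 16 anaphase-promoting complex subunits, 4 of 46 S phase genes, 0 of 12 inhibitors and 0 of 4 G1 genes. The share of genes of the count table was 13.0%. A window without the letters says only that they are not in those 300 bases.

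The authors' deposited table of fold changes, which carries the name of DESeq2, listed 5 of the 46 as lower with SRRM4 at an adjusted p under 0.05. In the authors' deposited table these were TOP2A, TPX2, CENPF, RACGAP1 and NUSAP1, the last at an adjusted p of 0.0492. Adjusted p there matched the DESeq2 fit made here for CDCA8 (0.0979) and CDC25C (0.175), so it is no separate test. For LSD1+8a the authors' deposited table called 0 of the 46. For LSD1 the authors' deposited table gives an adjusted p for 1 of the 46 genes and for 651 of all genes, so it cannot be read as a test of the list there.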

How the data were processed

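RNA-seq counts of 12 libraries, 3 in each of 4 groups, were analysed. The authors deposited whole-number counts for each gene. The deposited TPM table and the authors' deposited table of log2 fold changes, p-values and adjusted p-values listed the same 13001 genes, per the file headers. STAR 2.5.3a, RSEM 1.2.31 and hg19 are named in the submitters' processing notes, and strand use in counting is not given in the sources used here.

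The counts were scaled with TMM, and filterByExpr removed no gene. For the 6 comparisons, edgeR 4.0.16 under R 4.3.3 was fitted once to all 4 groups, and the quasi-likelihood F test (robust) was used with Benjamini-Hochberg adjustment over all genes and calls under 0.05. The fitting was tested on simulated data. The members and lists were chosen with earlier results of these data known. Library values are given for genes called in any comparison and for the gene with the smallest p in a role without a call. In each further list up to 4 genes with the smallest p were open to naming. Counts of a group's replicates differed by more than sampling noise (chi-square per degree of freedom 1.44 to 2.88), and the biological coefficient of variation was 2.98%. Alternatives were RLE and upper-quartile factors, KDM1A removed, no filter, a stricter filter, DESeq2 1.42.0, limma-voom (limma 3.58.1), a replicate block, only the groups compared, leaving out each library and, added after the data were seen, thinning to equal totals. RefSeq promoter windows are on GRCh38.p14 and were matched by symbol.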

Additional observations from a re-analysis of the deposited data

How the results depend on the processing

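The number of the 46 genes called higher was 0 in every comparison and alternative, and no fold change of a called gene changed sign. The count lower with SRRM4 against the empty vector was 5 in DESeq2, 13 with upper-quartile factors and 6 to 9 when 1 library was left out, and 10 otherwise, thinning to equal totals included. Its median, -0.09, ran from -0.114 to -0.0692 with 1 library left out, and was lowest without empty-vector replicate 2. Against LSD1+8a the count of 2 was 1 in DESeq2, 8 with upper-quartile factors, 5 when only these groups were fitted, 5 after thinning and 1 to 4 with 1 library left out. The median there was -0.0740 with upper-quartile factors and -0.0804 to -0.0549 with 1 library left out. Against LSD1 the count of 5 was 2 in DESeq2 and 2 to 9 with 1 library left out. The median of LSD1+8a against LSD1 ran from -0.0374 to -0.0020 with 1 library left out. The cause of these shifts was not tested.

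Libraries of the same replicate number did not deviate together more than others did. Whether they shared a culture or day is not in the labels. Deviations from the group means correlated at -0.23 to 0.10 between libraries of the same number (18 pairs) and at -0.11 to 0.22 between others (36 pairs). With the replicate block 10, 2 and 5 genes were lower with SRRM4 against the empty vector, LSD1+8a and LSD1, as without it. TOP2A, TPX2, CENPF and RACGAP1 were called against the empty vector under all 16 alternatives. With 3 libraries a group and a median SE of 0.05, changes of a few percent were below the limit of detection. The smallest called fall against the empty vector was 11.0%, and values down to -0.26 on the log2 scale were not called.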
